A study of Homo sapiens with 12 samples.

Results

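The genes described here encode 10 secreted inflammatory cytokines of epithelial and myeloid cells, namely the ELR chemokines CXCL1, CXCL2, CXCL3, CXCL5 and CXCL8, the interleukins IL6, IL1A and IL1B, and the colony-stimulating factors CSF2 and CSF3. The rule named them by their symbols among the 23064 gene symbols of the deposited tables, and it was set with earlier results of these data known. Each symbol was represented by the RefSeq transcript with the most counts, and all 10 genes were found and passed the filter on low counts. RNAseq libraries came from CAL-29 and 5637, a pair of established human bladder carcinoma cell lines, each transfected with the control siRNA siCtrl or with an siRNA against KMT9α (siKMT9α) and harvested on day 3, with 3 libraries in each of the 4 groups. KMT9α, encoded by N6AMT1, is the catalytic subunit of a histone methyltransferase. CAL-29 cells were cultured in DMEM and received 50 nM siRNA with RNAiMAX, whereas 5637 cells were cultured in RPMI and received 90 nM siRNA with DharmaFECT 3, so that the cell line cannot be told apart from its medium, reagent and siRNA concentration. No source states that the replicates were separate cultures, and p-values then measure the spread between these libraries, which may be technical. One siRNA sequence was used in each line, which the tables call si270. Other effects of this sequence cannot be told apart from loss of KMT9α. The study's results name siKMT9α#1, and the match between both names is not stated.

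ELR chemokines carry a glutamate-leucine-arginine motif before their paired cysteines and attract neutrophils through the receptors CXCR1 and CXCR2. IL-1α and IL-1β bind IL1R1 with its co-receptor IL1RAP and signal through MYD88 and IRAK kinases to NF-κB and AP-1, which drive transcription of the ELR chemokines, IL6 and the colony-stimulating factors. IL-6 acts through IL6R and the shared receptor chain IL6ST on JAK kinases and STAT3. CSF2 (GM-CSF) and CSF3 (G-CSF) act on myeloid precursors, and 5637 cells have long served as a source of such hematopoietic growth factors. Messenger RNAs of this kind are short-lived in resting cells, since AU-rich elements in their 3′ untranslated regions (3′ UTRs) recruit decay factors such as ZFP36.

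On GRCh37, the 5 ELR chemokine genes lie in 1 cluster on chromosome 4. CXCL8 (chr4:74606236-74609433) and CXCL1 (chr4:74735110-74737025) are on the plus strand, and CXCL5 (chr4:74861359-74864394), CXCL3 (chr4:74902306-74904524) and CXCL2 (chr4:74962757-74964913) are on the minus strand. IL1A (chr2:113531502-113542070) and IL1B (chr2:113587328-113594393) are neighbours on the minus strand of chromosome 2. IL6 (chr7:22765503-22771621), CSF2 (chr5:131409482-131411863) and CSF3 (chr17:38171614-38174066) are on plus strands. Counts were summed over exons. No blastn alignment of the 5 ELR transcripts with another protein-coding gene reached 50 bases at 95% identity or more over its whole length. A closer stretch within a longer, less similar alignment would be missed, so reads shared between these chemokines were not assessed. Genes on the opposite strand overlapped 17.3% of the exon bases of CXCL5 and 4.70% of those of IL6. Such reads cannot be told apart unless the counting used strand, which is not stated.

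The promoters of these genes were searched for motifs of the factors named above. The RefSeq promoter table (GRCh38.p14), which covers 250 bases before to 50 bases after each transcription start, matched 9 of the 10 genes, all but CSF3. A core NF-κB motif, GGNNTTTCC searched on both strands, was found in 6 of these 9 promoters and in 6.26% of all 35116 promoters of the table. The 6 promoter stretches that hold it are shown because they differ in whether the gene responded, with the motif in capitals and 5′ to 3′ on the strand of the gene.

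CXCL1, chr4:73869295-73869368, plus strand: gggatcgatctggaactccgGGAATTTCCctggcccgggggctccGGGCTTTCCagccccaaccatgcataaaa

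CXCL2, chr4:74099220-74099292, minus strand: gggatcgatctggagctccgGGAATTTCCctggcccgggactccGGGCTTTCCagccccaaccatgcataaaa

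CXCL3, chr4:74038714-74038787, minus strand: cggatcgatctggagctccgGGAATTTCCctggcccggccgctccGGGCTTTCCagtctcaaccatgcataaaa

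CXCL5, chr4:73998739-73998787, minus strand: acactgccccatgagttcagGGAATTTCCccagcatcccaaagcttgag

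CXCL8, chr4:73740458-73740506, plus strand: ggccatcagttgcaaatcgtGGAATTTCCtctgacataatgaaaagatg

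IL6, chr7:22727108-22727156, plus strand: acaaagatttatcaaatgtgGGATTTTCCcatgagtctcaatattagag

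CXCL1, CXCL2 and CXCL3 each held 2 matches and nearly the same flanks, and CXCL5, CXCL8 and IL6 held 1 match each. The promoters of IL1A, IL1B and CSF2 held no match in this window. The AP-1 motif TGANTCA was found in CXCL8 and IL1A, which is 2 of 9 promoters, against 7.71% of all promoters, and the TATA motif TATAAA, also searched on both strands, was found in the same 2 genes, against 11.5% of all promoters. A match of letters describes the sequence and does not show binding.

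Their 3′ UTRs were rich in the AU-rich pentamer ATTTA. In GENCODE 44 transcripts on GRCh37, the 10 genes held between 5 and 11 copies in the 3′ UTR, from 4.38 per kb in IL1A to 25.2 per kb in CSF2, with a median of 9.02 per kb. The median over 13652 genes tested in the joint model with a 3′ UTR of at least 50 bases was 1.72 per kb. At least 5 copies per kb were present in 9 of the 10 genes and in 9.08% of those 13652 genes. The pentamer was dense both in genes that responded to siKMT9α in CAL-29 cells, such as CXCL2 with 14.0 per kb, and in genes called in neither line, such as IL6 with 14.1 per kb. The site ACATTCA, complementary to bases 2 to 8 of the siKMT9α#1 guide strand, was found in the 3′ UTR of 1 of the 10 genes, CXCL5, and in 14.1% of the 13652 genes. It is shown in capitals with its flanks because CXCL5 responded in opposite directions in the 2 lines.

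CXCL5 3′ UTR site: tatatattACATTCActatatta

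The knockdown and the cells were checked before the cytokine genes were compared. In CAL-29 cells, N6AMT1 was at 11.1, 9.96 and 9.41 CPM (counts scaled for library size with TMM) with siCtrl and at 2.78, 2.87 and 1.94 CPM with siKMT9α (log2 fold change -2.00, SE 0.15). In 5637 cells it was at 13.7, 13.4 and 13.5 CPM with siCtrl and 3.85, 2.26 and 2.63 CPM with siKMT9α, a log2 fold change of -2.23 (SE 0.12). The groups did not overlap in either line. Library totals on the kept transcripts were between 24479488 and 35148657.5 counts. Epithelial markers (EPCAM, KRT5, KRT8, KRT18, KRT19 and CDH1) were present in all libraries, and their summed level was 12563 to 13247 CPM with siCtrl and 5992 to 6149 CPM with siKMT9α in CAL-29 cells, against 5269 to 5504 and 4268 to 4305 CPM in 5637 cells. All 6 of these markers were lower with siKMT9α at p below 1e-06 in CAL-29 cells and 5 of 6 in 5637 cells. The 8 leukocyte markers summed to 6.61 to 8.91 CPM with siCtrl and 14.6 to 15.7 CPM with siKMT9α in CAL-29 cells, mostly CD68, and to at most 5.49 CPM in 5637 cells, with 1 to 3 of the 8 at 0 in each group. The 5 fibroblast markers summed to at most 1.64 CPM in CAL-29 cells and to 57.8 to 65.0 CPM with siCtrl in 5637 cells, nearly all THY1, against 28.1 to 32.4 CPM with siKMT9α. The 4 endothelial markers summed to at most 13.4 CPM, with KDR the highest in siCtrl libraries of both lines. The part of these shifts in the results was not tested.

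Without knockdown, all 10 cytokine genes were expressed at a lower level in CAL-29 than in 5637 cells. The study called genes at an unadjusted p below 1e-06 in edgeR and does not name the test. At that threshold in edgeR's quasi-likelihood test, 10 of 10 were lower in the siCtrl libraries of CAL-29 cells. Of all 15070 genes tested, 28.1% were lower and 26.6% higher. At an adjusted p below 0.05, again all 10 were lower, against 85.2% of all genes called in either direction. The median log2 difference of the 10 genes was -4.78. For all 10, the 3 CAL-29 libraries lay below the 3 5637 libraries, a separation in either direction seen for 85.7% of all genes tested, and an exact 2-sided permutation test gave p = 0.1, the smallest that 3 libraries against 3 allow. CXCL2 and CSF3 passed the filter on low counts only through the 5637 libraries and had to differ to be tested. A count of at least 10 in every library left 8 of the 10 genes, and all 8 were lower in CAL-29 cells.

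The difference was smallest for CXCL1, the melanoma growth-stimulating chemokine GROα. CXCL1 was at 105, 103 and 88.7 CPM in the siCtrl libraries of CAL-29 cells and at 405, 393 and 411 CPM in those of 5637 cells, 4.07-fold lower in CAL-29 cells (log2 difference -2.02, SE 0.059, adjusted p = 1.45e-16). CXCL8, or interleukin-8, differed by -2.97 on the log2 scale (SE 0.082), with 38.8 to 55.0 CPM in CAL-29 and 360 to 378 CPM in 5637 cells. The related chemokines CXCL2, CXCL3 and CXCL5 were nearly silent in CAL-29 cells, at 0.677 ± 0.308, 0.568 ± 0.110 and 1.76 ± 0.377 CPM (SD, n = 3), and stood at 86.2 ± 1.43, 46.0 ± 2.27 and 125 ± 6.22 CPM in 5637 cells. Their log2 differences were -6.98, -6.31 and -6.14. The interleukins IL6, IL1A and IL1B were 8.93-fold, 15.1-fold and 32.2-fold lower in CAL-29 cells, and CSF2 was 23.6-fold lower. CSF3 had 7 counts in total over the 3 siCtrl libraries of CAL-29 cells, all of them in replicate 1, and 16886 counts over those of 5637 cells. Its fitted log2 difference of -10.85 rests on those 7 counts, and without that library the fit has only libraries at 0 in CAL-29 cells and gives -15.35, which is no bound.

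The order of the levels also differed between the lines. Per kb of transcript, CXCL1 was the highest of the 10 genes in siCtrl libraries of both, with 84.1 ± 7.49 CPM per kb in CAL-29 cells and 343 ± 7.61 CPM per kb in 5637 cells (SD, n = 3). In CAL-29 cells it was followed by CXCL8 (28.6 CPM per kb), IL1A (10.6 CPM per kb) and IL1B (6.97 CPM per kb), and the libraries of these neighbours did not overlap. IL6, CXCL5, CXCL2 and CXCL3, between 1.05 and 0.528 CPM per kb, overlapped each with the next. In 5637 cells, IL1B (225 ± 7.69 CPM per kb) and CXCL8 (225 ± 5.38 CPM per kb) came next and overlapped, followed by IL1A with 161 CPM per kb and CSF3 with 115 CPM per kb. IL6 was the lowest in 5637 cells, at 9.55 ± 0.381 CPM per kb, and CSF3 was the lowest in CAL-29 cells.

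**Figure D1:**
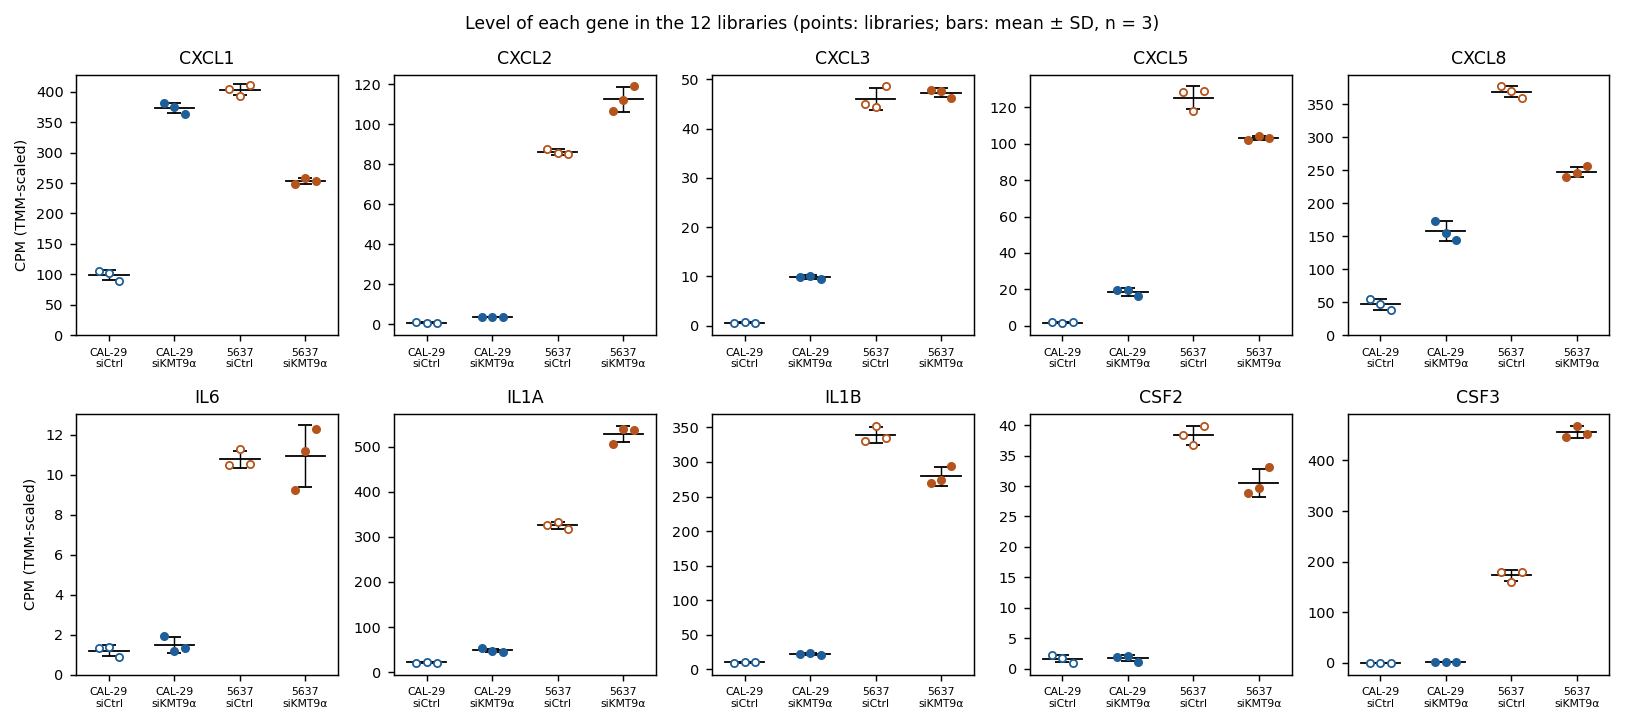
TMM-scaled CPM of the 10 cytokine genes in each library, 1 panel per gene with its own linear axis, for siCtrl (open) and siKMT9α (filled) in CAL-29 (blue) and 5637 (orange) cells, with bars for the mean ± SD over 3 libraries. CXCL1 rose from 98.7 to 373 CPM in CAL-29 cells and fell from 403 to 254 CPM in 5637 cells, while IL6 overlapped between the siRNAs in both lines.

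In CAL-29 cells, all 5 ELR chemokines and both IL-1 genes were higher with siKMT9α than with siCtrl. At p below 1e-06, 7 of the 10 genes were higher and 0 lower with siKMT9α, where 15.0% of all 14673 genes tested were higher and 15.0% lower. The median log2 fold change was 1.82 for the 10 genes and -0.016 over all genes tested. With the Benjamini-Hochberg adjustment over all genes and a threshold of 0.05, 8 were higher and 0 lower, against 69.5% of all genes called in either direction. The siRNA groups did not overlap for 8 of the 10 genes, all higher with siKMT9α, and for 72.4% of all genes tested. CXCL2 and CSF3 reached the filter only through their siKMT9α libraries, so a higher level there was part of being tested. A count of at least 10 in every library dropped both and left 6 genes higher and 0 lower. Of all 13847 genes in that setting, 2098 were higher and 2138 lower. Without a filter, 7 genes were again called higher, beside 3144 higher and 3038 lower of all 19308 genes.

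CXCL3 (GROγ) had the largest response of the 10 genes. Its libraries were at 0.614, 0.648 and 0.442 CPM with siCtrl and at 9.89, 10.2 and 9.42 CPM with siKMT9α. All siKMT9α libraries stood far above all siCtrl libraries, which held 12 to 17 counts each. The log2 fold change was 4.07 (SE 0.18, adjusted p = 4.18e-14), or 16.9-fold, which ranked 17 among the genes tested. CXCL5 (ENA-78) stood at 2.04, 1.33 and 1.92 CPM with siCtrl and rose to 19.9, 19.7 and 16.2 CPM, a log2 fold change of 3.38 (SE 0.14, adjusted p = 2.01e-14). The siKMT9α library of replicate 3 was the lowest of its group and still well above the controls.

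CXCL2 (GROβ) was at 0.950, 0.343 and 0.737 CPM with siCtrl and at 3.69, 3.32 and 3.71 CPM with siKMT9α. The groups were clearly apart, although the control of replicate 2 held 9 counts. Its log2 fold change of 2.38 had the largest error among the ELR chemokines (SE 0.26, adjusted p = 8.41e-08). CXCL1 rose 3.73-fold from its already high level to 381, 375 and 363 CPM (log2 fold change 1.90, SE 0.058, adjusted p = 9.42e-17). CXCL8 was at 55.0, 47.0 and 38.8 CPM with siCtrl and at 173, 155 and 145 CPM with siKMT9α, a log2 fold change of 1.73 (SE 0.086, adjusted p = 2.56e-13). In both CXCL1 and CXCL8 the lowest siKMT9α library was more than 2-fold above the highest control. Summed over the 5 ELR chemokines, the level rose from 149 ± 16.7 to 563 ± 25.1 CPM (SD, n = 3).

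The IL-1 genes had log2 fold changes near 1. IL1A, whose product is a cell-associated alarmin, was at 21.1, 22.1 and 21.2 CPM with siCtrl and at 52.6, 46.5 and 44.9 CPM with siKMT9α, a log2 fold change of 1.15 (SE 0.069, adjusted p = 5.37e-12). IL1B, whose product is secreted after cleavage by caspase-1, was at 9.94, 11.4 and 10.2 CPM with siCtrl and at 22.6, 23.7 and 21.4 CPM with siKMT9α, a log2 fold change of 1.09 (SE 0.086, adjusted p = 4.24e-10). Neither gene had overlapping groups.

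IL6 and CSF2 did not pass the test in CAL-29 cells, and CSF3 passed only at the adjusted threshold, which it missed with DESeq2 (adjusted p = 0.116). IL6 was at 1.33, 1.35 and 0.866 CPM with siCtrl and at 1.95, 1.19 and 1.33 CPM with siKMT9α, and the groups overlapped (log2 fold change 0.30, SE 0.28, adjusted p = 0.335). CSF2 was at 2.18, 1.71 and 0.994 CPM with siCtrl and at 1.97, 2.01 and 1.12 CPM with siKMT9α (log2 fold change 0.07, SE 0.28, adjusted p = 0.837). At 23.5 to 67 counts per library, both fits left a wide range, from -0.25 to 0.86 for IL6 and from -0.50 to 0.64 for CSF2 on the log2 scale at 2 SE. CSF3 had 7, 0 and 0 counts with siCtrl and 24.5, 23 and 10 counts with siKMT9α. Its fitted log2 fold change of 2.74 (SE 0.69, adjusted p = 0.00146) depends on the siCtrl library of replicate 1, without which both remaining controls are at 0 and no fold is given.

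In 5637 cells, where all 10 genes were expressed from the start, they differed in both directions with siKMT9α, with log2 fold changes from -0.67 to 1.40. At p below 1e-06, 3 of the 10 genes were higher and 4 lower with siKMT9α, where 18.0% of all 14335 genes tested were higher and 17.6% lower. The median log2 fold change was -0.13 for the 10 genes and -0.0055 over all genes tested. At an adjusted p below 0.05, 3 were higher and 5 lower, against 70.7% of all genes called in either direction. The siRNA groups did not overlap for 3 higher and 5 lower genes, and for 72.5% of all genes tested. All 10 genes reached the filter level in each of the 6 libraries.

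CSF3 had the largest response in 5637 cells. It was at 179, 160 and 180 CPM with siCtrl and at 446, 469 and 453 CPM with siKMT9α, so that every siKMT9α library was more than 2-fold above every control (log2 fold change 1.40, SE 0.038, adjusted p = 5.87e-23). It became the highest of the 10 genes per kb of transcript, at 303 ± 7.77 CPM per kb with siKMT9α. For CSF3, 5 transcripts were listed with nearly equal counts, and the values are those of 1 of them. IL1A rose from 326, 333 and 318 CPM to 506, 540 and 538 CPM, a log2 fold change of 0.70 (SE 0.033, adjusted p = 2.43e-17). CXCL2 rose from 87.8, 85.7 and 85.1 CPM to 107, 112 and 119 CPM, a log2 fold change of 0.38 (SE 0.040, adjusted p = 1.13e-09).

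The 4 genes that fell were CXCL1, CXCL8, CXCL5 and IL1B. CXCL1 was at 405, 393 and 411 CPM with siCtrl and at 249, 258 and 254 CPM with siKMT9α (log2 fold change -0.67, SE 0.032, adjusted p = 3.05e-17). CXCL8 went from 378, 370 and 360 CPM to 240, 246 and 256 CPM (log2 fold change -0.58, SE 0.033, adjusted p = 2.18e-15). The groups of these chemokines, the most abundant of the family, were far apart. CXCL5 was at 129, 118 and 129 CPM with siCtrl and at 102, 104 and 103 CPM with siKMT9α (log2 fold change -0.28, SE 0.038, adjusted p = 1.57e-07). This decrease was small, and the call at 1e-06 was lost without siCtrl replicate 1, siCtrl replicate 3 or siKMT9α replicate 3, where the log2 fold change was between -0.28 and -0.26. IL1B was at 331, 352 and 335 CPM with siCtrl and at 269, 274 and 294 CPM with siKMT9α (log2 fold change -0.28, SE 0.036, adjusted p = 4.36e-08).

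CSF2 missed 1e-06 in the quasi-likelihood test and passed the adjusted threshold, and it passed 1e-06 in 5 of 15 other settings. It was at 38.3, 36.7 and 39.9 CPM with siCtrl and at 28.8, 29.6 and 33.2 CPM with siKMT9α, without overlap (log2 fold change -0.33, SE 0.057, adjusted p = 8.91e-06). Without siKMT9α replicate 3, its log2 fold change was -0.39 and it passed 1e-06 (adjusted p = 3.23e-06). CXCL3 was at 44.9, 44.4 and 48.6 CPM with siCtrl and at 48.0, 47.6 and 46.2 CPM with siKMT9α, with overlapping groups (log2 fold change 0.04, SE 0.048, adjusted p = 0.515). IL6 ranged from 10.5 to 11.3 CPM with siCtrl and from 9.25 to 12.3 CPM with siKMT9α (log2 fold change 0.02, SE 0.093, adjusted p = 0.830). At 2 SE, the log2 fold change was between -0.06 and 0.13 for CXCL3 and between -0.16 and 0.21 for IL6. Summed over the 5 ELR chemokines, the level went from 1030 ± 16.5 to 764 ± 16.8 CPM (SD, n = 3), while the sum of all 10 genes was 1917 ± 11.7 CPM with siCtrl and 2068 ± 55.4 CPM with siKMT9α.

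**Figure D2:**
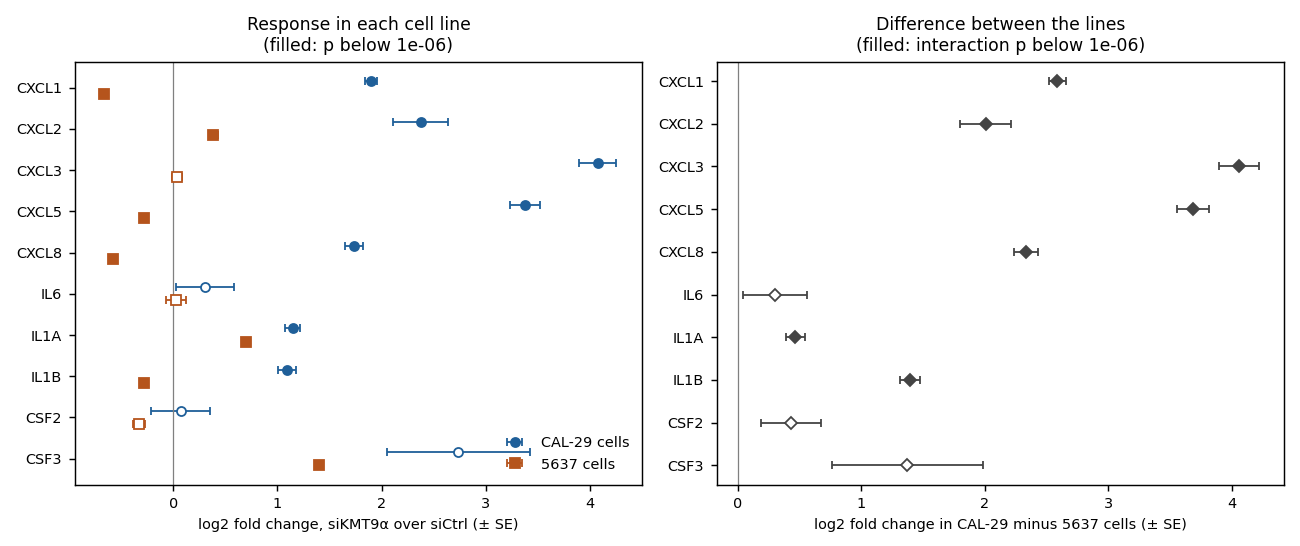
Log2 fold change of siKMT9α over siCtrl in CAL-29 (circles) and 5637 cells (squares) on the left, and the difference between both on the right, for the 10 cytokine genes, with horizontal bars of ± 1 SE and filled symbols at p below 1e-06. Values of the 5 ELR chemokines run from 1.73 to 4.07 in CAL-29 cells and from -0.67 to 0.38 in 5637 cells.

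Whether the response differed between the lines was tested with the interaction of line and siRNA over all 12 libraries. The response was more positive in CAL-29 cells for 7 of the 10 genes and more negative for 0 at p below 1e-06, where 8.62% of all 15395 genes tested were more positive and 7.11% more negative. At an adjusted p below 0.05, the counts were also 7 and 0, against 50.4% of all genes called in either direction. Scaling by total counts moved the median of all genes by 0.12 on the log2 scale and the calls over all genes from 1327 more positive and 1094 more negative to 2041 and 778, and 7 of the 10 genes were again called.

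All 5 ELR chemokines were among the 7. The difference in log2 fold change was 4.06 (SE 0.16) for CXCL3, 3.68 (SE 0.13) for CXCL5, 2.59 (SE 0.067) for CXCL1, 2.33 (SE 0.099) for CXCL8 and 2.01 (SE 0.20) for CXCL2. IL1B differed by 1.39 (SE 0.081, adjusted p = 2.08e-14). IL1A rose in both lines, and its difference of 0.47 (SE 0.073, adjusted p = 4.76e-06) lay just past the threshold. That call was lost in 10 of the 12 fits without 1 library, with the difference between 0.40 and 0.49 in those 10. The differences for IL6 (0.30, SE 0.26, adjusted p = 0.358), CSF2 (0.43, SE 0.24, adjusted p = 0.139) and CSF3 (1.37, SE 0.61, adjusted p = 0.0634) did not pass, and CSF3 again rests on few counts in CAL-29 cells.

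Of the 10 genes, 6 passed 1e-06 within each line. CXCL1, CXCL5, CXCL8 and IL1B were higher with siKMT9α in CAL-29 cells and lower in 5637 cells. Over all 13674 genes tested in both lines, 113 genes (0.826%) showed this pattern. CXCL2 and IL1A were higher in both lines, as were 1155 of all genes (8.45%). CXCL1 and CXCL2, which share 2 promoter motifs and nearly the same flanks in the sequences above, were called in opposite directions in 5637 cells.

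With siKMT9α, the lines stood closer to each other than with siCtrl. The distance between CAL-29 and 5637 cells was smaller for all 10 genes and for 54.6% of all genes, with a median absolute log2 distance of 4.79 with siCtrl and 3.16 with siKMT9α for the 10 genes, against 0.76 and 0.70 over all genes. This is the interaction seen from the other side and no separate evidence. For CXCL1 the order turned, from -2.03 (SE 0.049) with siCtrl to 0.56 (SE 0.046) with siKMT9α, and CAL-29 cells then held 373 ± 8.88 CPM against 254 ± 4.80 CPM in 5637 cells (SD, n = 3). CXCL8 came within 1.56-fold of the level in 5637 cells. CXCL3 stood at 4.80-fold, CXCL5 at 5.51-fold and IL6 at 7.28-fold below 5637 cells, while IL1A, IL1B, CSF2, CXCL2 and CSF3 remained over 10-fold below, with CXCL2 31.6-fold lower in CAL-29 cells.

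**Figure D3:**
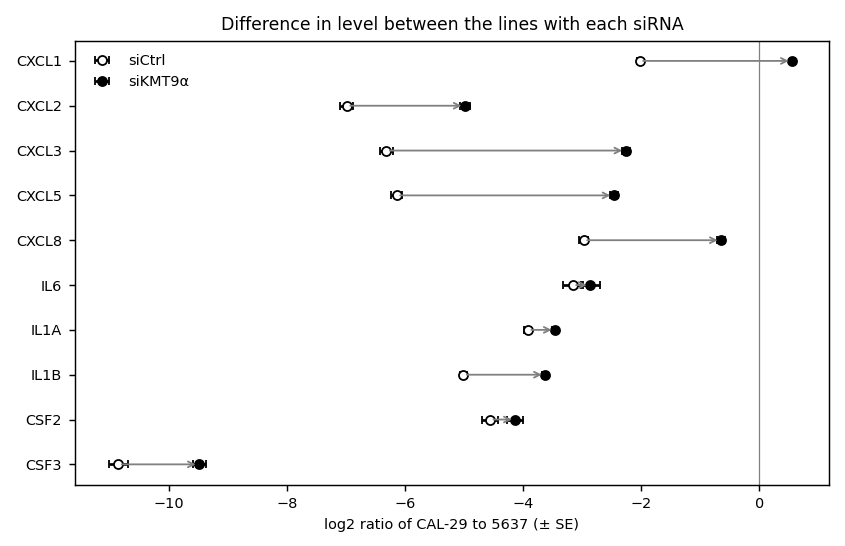
Log2 ratio of CAL-29 to 5637 cells for the 10 cytokine genes with siCtrl (open) and siKMT9α (filled), with bars of ± 1 SE from 1 model of all 12 libraries. Arrows run from siCtrl to siKMT9α and all point toward higher values, and CXCL1 alone crosses 0.

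Across the 12 libraries, Pearson's r of the log2(CPM + 1) of CXCL1 with the other 9 genes was between 0.458 for CSF3 and 0.889 for CXCL8, whereas CXCL2, IL6, IL1A, IL1B, CSF2 and CSF3 correlated with each other at between 0.957 and 0.995. These values describe 12 libraries in 4 groups, and the difference between the lines sets most of them. The gene with the pattern most like CXCL1 was SAA2 (r = 0.986, 12 libraries), and the one most like CXCL8 was SAA1 (r = 0.990). SAA1 and SAA2 encode serum amyloid A acute-phase proteins. For CXCL1 and CXCL8, r was above 0.9 with 119 and 766 genes. For CXCL3 and CXCL5, the nearest genes were CNKSR3 and SYPL1, and r was above 0.9 with 1840 and 1888 genes. The nearest genes of CXCL2, IL6 and IL1A were RAVER1, RASSF7 and SYS1-DBNDD2. Those of IL1B, CSF2 and CSF3 were CHAF1B, SCARF2 and DOCK10. Each of CXCL2, IL6, IL1A, IL1B, CSF2 and CSF3 had r above 0.9 with 2758 to 2965 genes.

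CXCL6, the other ELR chemokine of the cluster with a sizeable signal, moved like CXCL1 in direction. It was at 3.27, 2.90 and 2.03 CPM with siCtrl and at 14.6, 16.6 and 15.2 CPM with siKMT9α in CAL-29 cells (log2 fold change 2.49, SE 0.14). In 5637 cells it was at 226, 209 and 231 CPM with siCtrl and at 24.2, 24.8 and 23.3 CPM with siKMT9α (log2 fold change -3.21, SE 0.046). The log2 fold change of CXCL6 in 5637 cells was thus lower than that of each of the 10 genes, and the difference of 5.72 (SE 0.12) ranked 13 among all 15395 genes. Of the 7 genes in the list of ELR relatives and receptors, PPBP, PF4, PF4V1, CXCR1 and ACKR1 were too low to test in either line, and CXCR2 was tested in CAL-29 cells only, where it did not pass 1e-06.

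IL6 passed in neither line, and some of its relatives, receptors and signaling partners did. Of 13 tested genes in this list, 1 was higher and 5 lower at p below 1e-06 in CAL-29 cells (all genes 15.0% and 15.0%). In 5637 cells, 2 of 13 were higher and 7 lower (all genes 18.0% and 17.6%). The median log2 fold changes were -0.36 and -0.37. IL6R, the ligand-binding receptor chain, rose from 4.53 to 46.2 CPM in 5637 cells (log2 fold change 3.36, SE 0.076), whereas IL6ST, the signaling chain, went from 280 to 77.4 CPM (log2 fold change -1.86, SE 0.037). In CAL-29 cells, the log2 fold changes of IL6R and IL6ST were 0.45 and -0.35, which did not pass 1e-06. IL11, another ligand of IL6ST, fell in both lines, by 1.91 in CAL-29 and by 1.90 in 5637 cells on the log2 scale. The ligands CLCF1 (log2 fold change -1.20) and CTF1 (-1.18) fell in CAL-29 cells. Both were also lower in 5637 cells, CLCF1 with 35.0 CPM (siCtrl) and 26.0 CPM (siKMT9α), CTF1 with 5.31 and 2.91 CPM.

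In the IL-1 list, 4 of 15 tested genes were higher and 2 lower in CAL-29 cells (all genes 15.0% and 15.0%), and 3 of 16 higher and 1 lower in 5637 cells (all genes 18.0% and 17.6%). The share higher in 5637 cells and the share lower in CAL-29 cells were near those of all genes, and the medians were 0.13 and -0.16. IL1RAP, the co-receptor for IL-1α and IL-1β, fell in both lines, from 60.2 to 12.8 CPM in CAL-29 cells (log2 fold change -2.25, SE 0.064) and from 64.2 to 20.2 CPM in 5637 cells (log2 fold change -1.67, SE 0.053). IRAK2, a kinase of the IL-1 receptor complex, rose in both lines, with log2 fold changes of 1.48 in CAL-29 and 0.65 in 5637 cells. IL18R1, the receptor of the related cytokine IL-18, also rose in both lines, with 1.67 and 1.05.

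Among relatives of the colony-stimulating factors, 2 of 4 tested genes were higher and 1 lower in CAL-29 cells (all genes 15.0% and 15.0%), and 0 of 3 higher and 1 lower in 5637 cells (all genes 18.0% and 17.6%), counts too few to compare with those shares. The medians were 1.39 and -0.70. CSF1, the macrophage colony-stimulating factor, moved in opposite directions, from 51.0 to 121 CPM in CAL-29 cells (log2 fold change 1.23, SE 0.056) and from 83.3 to 37.7 CPM in 5637 cells (log2 fold change -1.15, SE 0.051). The difference between the lines was 2.39 (SE 0.080, adjusted p = 8.47e-20). KITLG, stem cell factor, rose in CAL-29 cells from 34.5 to 188 CPM (log2 fold change 2.43). CSF1R, the receptor of CSF1, fell there from 11.7 to 1.23 CPM (log2 fold change -3.27). The receptor genes CSF2RA, CSF2RB and CSF3R were too low to test in both lines.

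Of 21 genes for NF-κB, AP-1 and C/EBP factors, their regulators and the inducer TNF, 8 were higher and 1 lower in CAL-29 cells (all genes 15.0% and 15.0%), with a median of 0.22 on the log2 scale. In 5637 cells 4 were higher and 4 lower, about the shares of all genes (18.0% and 17.6%), with a median of 0.01. The interaction was called more positive in CAL-29 cells for 6 of the 21 and more negative for 0 (all genes 8.62% and 7.11%). CEBPD, a C/EBP factor of the acute-phase response, rose from 12.6 to 42.2 CPM in CAL-29 cells (log2 fold change 1.72, SE 0.072) and was at 84.1 and 89.2 CPM in 5637 cells. NFKBIZ, a nuclear IκB protein that acts with NF-κB on cytokine promoters, rose from 41.7 to 104 CPM in CAL-29 cells (log2 fold change 1.30, SE 0.061) and had a log2 fold change of 0.06 in 5637 cells (adjusted p = 0.132). The differences between the lines were 1.65 for CEBPD (adjusted p = 8.85e-15) and 1.25 for NFKBIZ (adjusted p = 1.24e-14). BCL3, another IκB-related coactivator, rose in both lines, with log2 fold changes of 1.29 in CAL-29 and 0.73 in 5637 cells. Among the genes of the list past 1e-06 in 5637 cells, FOS (log2 fold change -1.47), FOSL1 (1.15) and JUN (-0.76), all AP-1 subunits, changed most. JUN and FOSL1 moved in the same directions in CAL-29 cells, JUN from 242 to 133 CPM and FOSL1 from 9.77 to 19.7 CPM. FOS was low there, at 1.48 CPM with siCtrl and 1.65 CPM with siKMT9α. TNF, named after its values were seen, missed 1e-06 in 5637 cells with -1.14 (adjusted p = 1.26e-05). In CAL-29 cells TNF was also lower, at 3.47, 3.01 and 2.03 CPM with siCtrl and at 1.68, 0.526 and 0.471 CPM with siKMT9α.

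Factors that bind AU-rich elements, and the p38-MK2 pathway that restrains them, were also listed. Of 14 tested genes, 3 were higher and 4 lower in CAL-29 cells (all genes 15.0% and 15.0%) and 4 higher and 3 lower in 5637 cells (all genes 18.0% and 17.6%), with medians of -0.01 and 0.07. DUSP1, a phosphatase of p38, fell in both lines (log2 fold change -0.59 and -0.48). TIA1 (-0.56) and MAPK14, the p38α kinase (-0.56), fell in CAL-29 cells. Both were also lower in 5637 cells, where the siRNA groups did not overlap. There, MAPK14 was at 55.5 to 62.3 CPM with siCtrl and at 43.5 to 44.4 CPM with siKMT9α. TIA1 was at 84.97 to 98.5 CPM with siCtrl and at 70.1 to 79.9 CPM with siKMT9α. In 5637 cells, the decay factor ZFP36L2 rose by a log2 fold change of 1.05 and ZFP36L1 fell (-0.46). Both were higher with siKMT9α in CAL-29 cells, ZFP36L2 with 165 CPM (siCtrl) and 192 CPM (siKMT9α), ZFP36L1 with 243 and 279 CPM.

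Chemokines outside the ELR group were mostly too low to test. Of 21 listed, 10 were tested in CAL-29 cells, with 3 higher and 0 lower (all genes 15.0% and 15.0%), and 7 in 5637 cells, with 1 higher and 2 lower (all genes 18.0% and 17.6%). The medians were 0.19 and -0.10. CCL22 and CX3CL1 rose in CAL-29 cells, with log2 fold changes of 1.39 and 1.01. CCL20, a chemokine for dendritic cells and lymphocytes, rose in 5637 cells from 15.9 to 36.9 CPM (log2 fold change 1.21). In CAL-29 cells CCL20 had 1, 2 and 0.5 counts with siCtrl and 100.5, 103 and 75 counts with siKMT9α, or 2.94 to 3.21 CPM, and it also passed 1e-06 there. CXCL16 fell from 71.6 to 54.4 CPM in 5637 cells (log2 fold change -0.40). The other gene that fell there, CCL2, was named after its values were seen and had 43, 54.5 and 63 counts with siCtrl and 1, 1 and 0 counts with siKMT9α.

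**Figure D4:**
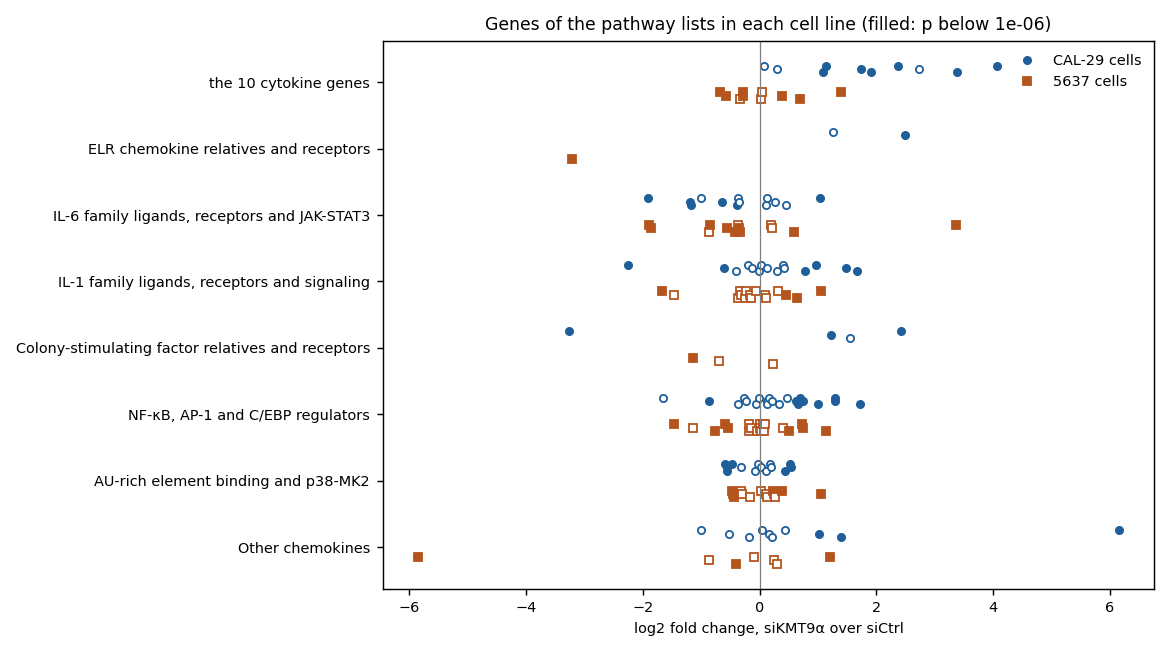
Log2 fold change of siKMT9α over siCtrl for every tested gene of the 10 cytokine genes and of 7 pathway lists, in CAL-29 (blue circles) and 5637 cells (orange squares), filled at p below 1e-06. The 10 cytokine genes have a median of 1.82 in CAL-29 and -0.13 in 5637 cells, and CXCL6 stands at 2.49 and -3.21.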

How the data were processed

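RNA of CAL-29 and 5637 cells with siCtrl or siKMT9α was measured by RNAseq in 12 libraries, grouped by the sample labels. The authors aligned reads to hg19 with STAR 2.7.10b and counted them with Homer 4.11 (analyzeRepeats). The values the authors deposited are estimated counts, not normalized, on 37400 RefSeq transcripts, as multiples of 0.5. The tables also hold the authors' p-values and fold changes, which were not used.

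Each symbol was represented by its transcript of highest count (over a line's 6 libraries for the response, over all 12 otherwise), rounded to whole numbers. In edgeR 4.0.16 (R 4.3.3), libraries were TMM-scaled, low genes were dropped by filterByExpr, and each line, the siCtrl baseline and the interaction were fitted with the quasi-likelihood F test over all genes, with no covariate, and Benjamini-Hochberg adjustment. Calls used an unadjusted p below 1e-06, as in the study's methods, which name edgeR but not the test. Over all genes, the quasi-likelihood test called 4402 genes in CAL-29 and 5104 in 5637 cells. The likelihood ratio test called 6133 and 6286. SE is the size of the log2 fold change divided by the square root of F. CPM values were TMM-scaled over all 12 libraries. Libraries within a group varied beyond counting noise (chi-square per degree of freedom 2.25 to 12.3), so no libraries were merged. Level per kb used GENCODE 44 transcript lengths. Shared sequence was searched with blastn 2.17.0+.

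The cytokine genes and lists were chosen with earlier results of these data known. Named genes were the 10 genes, N6AMT1, the 3 genes of each other list and line with the largest log2 fold change past 1e-06 at a mean count of at least 50, and the gene nearest in pattern to each of the 10, and genes outside this rule (CXCR2, TNF, CCL2, the untested genes and markers) are listed for completeness. Alternatives were RLE and total-count scaling, no filter, at least 10 counts in every library, edgeR's likelihood ratio test, DESeq2 1.42.0, summed transcripts, the replicate number as a term, a joint model, other thresholds and each library left out. Scripts were tested on simulated data. Replicate numbers are those of the sample titles, which differ from those of the descriptions for siKMT9α.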

Additional observations from a re-analysis of the deposited data

Results flagged for a closer look

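The response to siKMT9α differed between the lines by the interaction test at p below 1e-06 for 7 of the 10 genes. Of all 15395 genes tested, 8.62% were more positive in CAL-29 cells and 7.11% more negative. Over the settings other than leaving out a library, 5 to 7 of the 10 genes were called. Values are the log2 fold change in CAL-29 minus 5637 cells. The difference was 2.59 for CXCL1, 2.01 for CXCL2, 4.06 for CXCL3, 3.68 for CXCL5 and 2.33 for CXCL8. It was 0.47 for IL1A, which rose in both lines, and 1.39 for IL1B. The IL1A call was lost in 13 of 20 other settings, which include the fits without 1 library. CXCL1, CXCL5, CXCL8 and IL1B were called in opposite directions in the lines, and CXCL3 was called in CAL-29 cells only. The cell line cannot be told apart from its medium, transfection reagent and siRNA concentration.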

How the results depend on the processing

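Over the settings other than leaving out a library, 320 values of a gene kept direction and side of the threshold, 2 reversed, 5 newly passed and 7 no longer passed 1e-06. With total-count scaling, the 5637 log2 fold changes of CXCL3 and IL6, called in no fit, turned to -0.018 and -0.030. In 5637 cells, a log2 fold change of at least 1 left 1 gene higher (CSF3) and 0 lower. Summing all transcripts of each gene left 2 genes lower there in place of 4, with CXCL5 and IL1B no longer below 1e-06. CXCL5, IL1B and CXCL2 have 1 listed transcript each, so summing left their own counts unchanged. With this setting, calls over all genes in 5637 cells fell from 5104 to 3761. The cause of the lost calls was not tested. CSF3 in CAL-29 cells passed 1e-06 with edgeR's likelihood ratio test (log2 fold change 2.73) and missed the adjusted threshold with DESeq2 (adjusted p = 0.116), CXCL2 there missed 1e-06 with summed transcripts (adjusted p = 6.78e-06), and CXCL5 in 5637 cells missed it in the joint model (adjusted p = 4.11e-05).

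With 1 library left out, calls ranged from 7 to 8 higher in CAL-29 cells, 3 higher and 3 to 4 lower in 5637 cells, 10 lower at baseline and 6 to 7 more positive for the interaction. The uncalled log2 fold changes of CSF2 in CAL-29 cells (-0.18 to 0.34) and IL6 in 5637 cells (-0.070 to 0.13) changed sign.

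Whether the replicate numbers pair the libraries is unclear. Correlations of same-numbered deviations from the group means were 0.179, 0.038 and 0.065 in CAL-29 and 0.169, 0.006 and -0.008 in 5637 cells. The siCtrl library of replicate 1 correlated best with its own number in both lines, and not every siCtrl library did. With the replicate block, 7 genes were higher in CAL-29 cells, 3 higher and 5 lower in 5637 cells (CSF2 added, log2 fold change -0.33, adjusted p = 1.79e-06) and 7 more positive for the interaction. Calls over all genes also rose with the block, from 4402 to 6327 in CAL-29 and from 5104 to 5378 in 5637 cells. For the interaction they rose from 2421 to 2857. In CAL-29 cells, IL6, CSF2 and CSF3 had 0 to 67 counts in each library, and the part of depth in their errors was not tested.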
